A study of Mus musculus with 24 samples.

Results

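The collagen genes of the mouse heart were read from ventricle arrays of newborn and young mice, with and without caspase-3 and -7. A gene counted as a collagen gene when its symbol was Col followed by a digit and a probe set of the array carried that symbol alone, and the brightest such probe set over all 24 arrays stood for the gene. This gave 42 collagen genes of the 18819 genes tested, from 46 probe sets, since Col5a1, Col6a5, Col6a6 and Col20a1 had more than 1. A further 2 probe sets carried a collagen symbol together with another gene's symbol and were not used. Of the 42 genes, 11 encode fibrillar collagens, 6 encode the basement membrane collagens of type IV and 25 encode other collagens.

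Collagens are proteins of the extracellular matrix in which 3 chains wind into a triple helix. Fibrillar collagens assemble into the cables that carry tension between muscle layers, type IV collagens form the sheet on which cardiomyocytes and capillaries rest, and the other collagens decorate fibrils, form beaded filaments or hexagonal networks, or span the cell membrane. In the heart, fibroblasts are the main source of fibrillar collagen, while endothelial cells and cardiomyocytes also make type IV chains.

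Total RNA of 24 ventricles labelled C57/Bl6, 6 per group, was hybridised to whole-transcript arrays, 1 heart per array. Newborn hearts came from mice of 1 to 2 days by the labels and young hearts from mice of 30 days, and the Methods give slightly different age ranges. WT hearts were wild type for both caspases, and whether they carried Cre or a floxed allele was not given. KO hearts lacked caspase-7 in the whole body and carried a floxed caspase-3 that was deleted by Nkx2.5::Cre, a transgene driven by the basal promoter and cardiac enhancer of Nkx2.5. By the study's own description of its genotyping, the floxed caspase-3 was still intact in cardiac fibroblasts, and some caspase-3 protein remained in newborn KO hearts. Both sexes were used, but the sex of each heart was not given, and p-values measure the spread between these hearts only.

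Signals were log2 values, so a difference of 1 is a doubling, and a gene was called changed at an adjusted p under 0.05 in limma, with adjustment over all 18819 genes. Each array correlated with the others of its group at a mean r of 0.986 to 0.996. All 10 ventricular cardiomyocyte markers, such as Myl2, lay above the 50th percentile of mean signal, with a mean over the list of 11.82 and 11.8 in WT and KO newborn hearts and of 11.6 and 11.51 at the young age. In WT hearts 5 of the 10 were called higher with age and 1 lower, against 19.2% and 27.9% of all genes. Their median change was 0.15, and the 1 was Myh7 (mean 11.32 in newborn and 6.99 in young WT hearts). Markers of the atria were present as well. Their mean (12 genes, without Nppa) was 5.79, 8.59, 5.64, 5.57, 7.54 and 6.06 in young WT hearts 1 to 6 and 8.12, 9.16, 6.11, 8.32, 9.07 and 7.68 in young KO hearts 1 to 6. Young WT heart 2 was therefore the highest of its group and young KO heart 3 the lowest of its own. Among the collagens, young WT heart 2 had the highest signal of its group for 18 of the 42 genes and young KO heart 3 the lowest of its own for 21. Other hearts were often at an end of their group too, as young KO heart 2 was highest for 20 genes, newborn WT heart 4 highest for 17 and newborn KO heart 1 lowest for 16. Values with and without young WT heart 2 and young KO heart 3 are given where a result rests on them.

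Most collagens with strong signals were lower in young than in newborn WT hearts. The fibrillar chains Col1a1, Col1a2, Col3a1, Col5a1 and Col5a2, the beaded filament chains Col6a1, Col6a2 and Col6a6, and the fibril-associated Col12a1 and Col14a1 changed by -1.01 to -2.46 on the log2 scale, whereas Col8a1 rose 3.25-fold and the type IV chain Col4a3 rose 1.66-fold. In all, 22 of the 42 genes were lower, 4 were higher and 16 were not called, where 27.9% of all genes tested were lower and 19.2% were higher (47% in either direction). The median change was -0.29 for the collagens and 0 for all genes. The 6 young WT hearts all lay below the 6 newborn WT hearts for 15 collagen genes, against 18.2% of all genes, and all above them for Col4a3 and Col8a1, against 11.5% of all genes. Calls are on the deposited scale unless stated. How the arrays are scaled moved this balance. With each array centred on its median, the change of all genes shifted to a median of 0.26, and 12831 of the 18819 genes were called. In that setting 15 collagens were lower and 11 higher, and the collagen median was -0.03. The same 15 genes were lower under the deposited scale, median centring and a new quantile normalization, and Col4a3, Col4a4, Col5a3 and Col8a1 were higher under all 3.

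**Figure D1:**
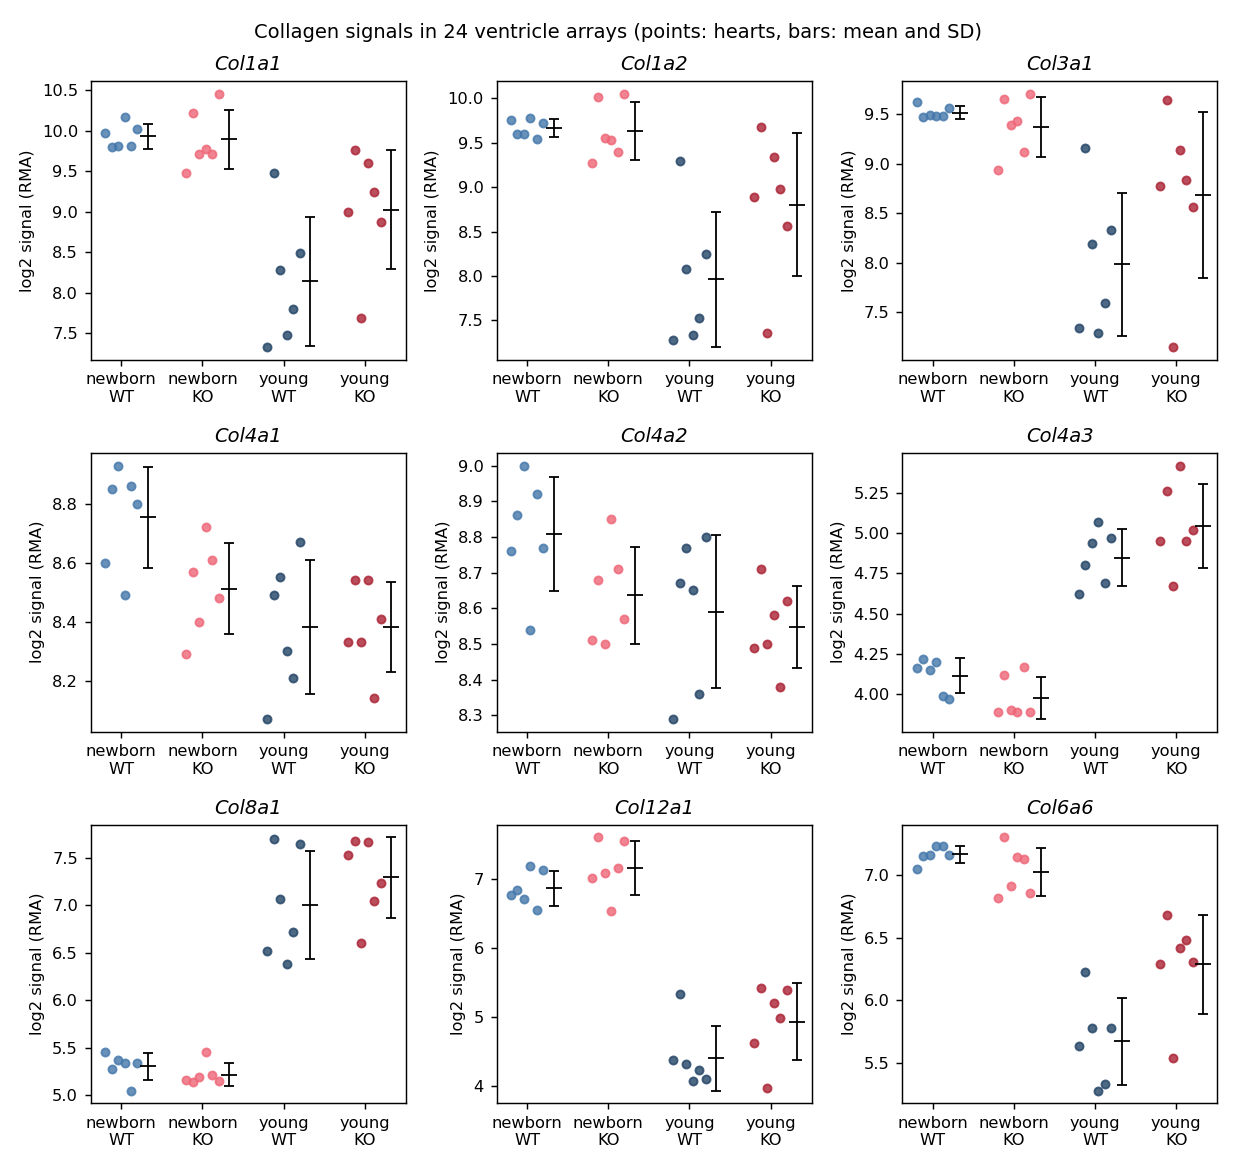
Log2 signal (RMA) of 9 collagen genes in each of the 24 ventricles, with 6 hearts per group as points and the mean and SD as bars beside them. Col1a1, Col1a2 and Col3a1 are spread widely among young hearts of both genotypes, Col12a1 and Col6a6 are lower in all young hearts than in all newborn hearts, and Col8a1 and Col4a3 are higher.

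Fibrillar collagens were mostly lower. Of the 11 genes, 8 were lower and 1 was higher in young WT hearts, with a median of -0.95. With median centring these counts were 6 and 2 with a median of -0.69, and with a gene's probe sets averaged the median was -0.55. Col1a1 and Col1a2 encode the chains of type I collagen, the chief fibril of the heart's interstitium. Col1a1 ranged in newborn hearts from 9.8 to 10.17 (median 9.9) for WT and from 9.48 to 10.46 (9.75) for KO, and in young hearts from 7.33 to 9.48 (8.04) for WT and from 7.69 to 9.76 (9.12) for KO. Col1a2 ranged from 9.54 to 9.78 (median 9.66), 9.27 to 10.05 (9.54), 7.28 to 9.29 (7.81) and 7.36 to 9.68 (8.93) in the same order of groups. For both genes every young WT heart was below every newborn WT heart, while young KO hearts overlapped newborn KO hearts, and young WT heart 2 was the highest of its group, with the next heart at 8.49 and 8.25. The fall in WT hearts was 3.45-fold for Col1a1 (log2 -1.79, SE 0.31, adjusted p = 2.43e-05) and 3.25-fold for Col1a2 (-1.7, SE 0.31, adjusted p = 4.87e-05). In KO hearts it was 1.82-fold (-0.87, SE 0.31, adjusted p = 0.0183) and 1.78-fold (-0.84, SE 0.31, adjusted p = 0.0232), and without young KO heart 3 neither KO call held. The KO call of Col1a2 was also lost without newborn KO heart 2 or newborn KO heart 6.

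The 250 bases before the annotated start of Col1a2, on the plus strand of chr6:4505368-4505617 (RefSeq, GRCm38.p6), are shown because both type I chains fell with age, with capitals marking CCAAT and GGGCGG or their reverse complements.
Col1a2: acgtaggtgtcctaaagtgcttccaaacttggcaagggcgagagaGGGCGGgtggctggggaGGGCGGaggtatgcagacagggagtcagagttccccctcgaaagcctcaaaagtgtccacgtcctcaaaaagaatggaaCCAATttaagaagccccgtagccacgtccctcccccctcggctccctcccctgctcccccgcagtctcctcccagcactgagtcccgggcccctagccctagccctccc
The window held 2 copies of GGGCGG, 205 and 188 bases before the start, and 1 of CCAAT, 109 bases before it. Windows from 250 bases before to 50 bases after the start were listed for 34 of the 42 collagen genes, 37 windows in all. GGGCGG was found on either strand in 59.5% of them and in 35.7% of all 32851 windows, CCAAT in 32.4% and 37.4%, and TATAAA in 13.5% and 13.6%. A match of these letters is a description of the sequence and not a measured site.

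Col3a1, the chain of type III collagen, which mixes with type I in distensible tissue, ranged in newborn hearts from 9.47 to 9.63 (median 9.48) for WT and from 8.94 to 9.71 (9.41) for KO, and in young hearts from 7.29 to 9.16 (7.89) for WT and from 7.15 to 9.65 (8.81) for KO. It was 2.9-fold lower in young than in newborn WT hearts (log2 -1.54, SE 0.3, adjusted p = 0.000146). In KO hearts the change was -0.69 (SE 0.3, adjusted p = 0.0553). Its neighbour on chromosome 1, Col5a2, a chain of the type V collagen on which fibrils are started, ranged from 6.87 to 7.18 (7.03), 6.7 to 7.28 (6.96), 4.88 to 6.17 (5.34) and 5.03 to 6.46 (5.98) in the same order. Its fall was the third largest in KO hearts, at 2.06-fold (-1.04, SE 0.2, adjusted p = 9.43e-05), against 3.11-fold in WT hearts (-1.64, SE 0.2, adjusted p = 1.6e-07). Young and newborn hearts did not overlap for Col5a2 in either genotype. Col5a1 fell by 1.01 in WT and by 0.81 in KO hearts, but a second, dimmer probe set of Col5a1 gave -0.09 in both.

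Col11a1, a chain of the type XI collagen of cartilage, fell by 0.95 in WT and by 0.75 in KO hearts without overlap. Col24a1 and Col27a1 were lower in WT hearts by 0.27 and 0.29, calls that either rescaling ended. In KO hearts neither was called on the deposited scale, and Col24a1 was called lower after quantile normalization. Col2a1, the cartilage collagen, was called in neither genotype on the deposited scale. Col5a3, the third type V chain, ran opposite to Col5a1 and Col5a2. It ranged in newborn hearts from 4.53 to 4.8 (median 4.58) for WT and from 4.32 to 4.77 (4.55) for KO, and in young hearts from 4.77 to 5.52 (5.1) for WT and from 4.77 to 5.39 (5.22) for KO, so that only the edges of the groups touched. The rise was 1.41-fold in WT (log2 0.49, SE 0.11, adjusted p = 0.000677) and 1.55-fold in KO hearts (0.63, SE 0.11, adjusted p = 5e-05). Col11a2 rose in KO hearts (0.48, SE 0.09, adjusted p = 9.55e-05), where its groups did not overlap, and changed by 0.05 in WT hearts (adjusted p = 0.668), while the difference between these changes did not pass (adjusted p = 0.241).

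**Figure D2:**
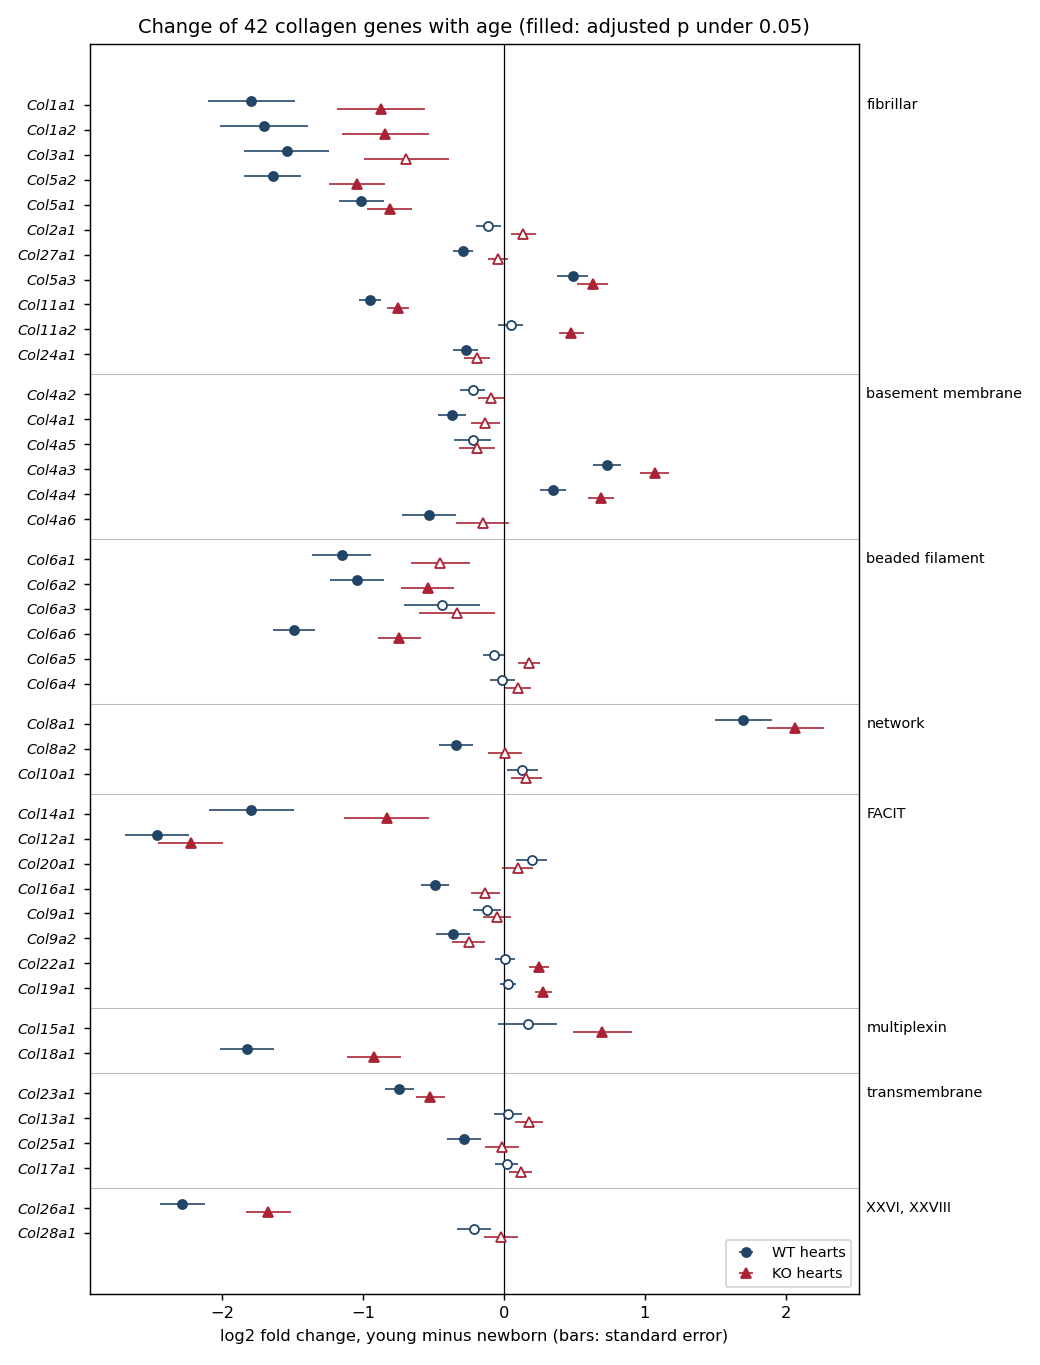
Log2 fold change from newborn to young for each of the 42 collagen genes, grouped by class and ordered by signal, in WT (circles) and KO hearts (triangles), with standard errors as bars and filled symbols for genes called by limma. Col12a1 (-2.46), Col26a1 (-2.28) and Col18a1 (-1.82) lie furthest left in WT hearts, each of another class, and Col8a1 lies alone at the far right.

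The 6 type IV genes split in direction. Col4a1 and Col4a2, the chains of the network found in almost every basement membrane, share a locus, and their starts lie 21 bases apart on opposite strands of chromosome 8. Col4a1 ranged in newborn hearts from 8.49 to 8.93 (median 8.82) for WT and from 8.29 to 8.72 (8.53) for KO, and in young hearts from 8.07 to 8.67 (8.4) for WT and from 8.14 to 8.54 (8.37) for KO. Col4a2 ranged from 8.54 to 9 (8.81), 8.5 to 8.85 (8.63), 8.29 to 8.8 (8.66) and 8.38 to 8.71 (8.54). All 4 groups overlapped for both. Col4a1 was 1.29-fold lower in young WT hearts (log2 -0.37, SE 0.1, adjusted p = 0.00332), a call that centring ended, and Col4a2 changed by -0.22 (adjusted p = 0.0529). In KO hearts the changes were -0.13 and -0.09, with adjusted p of 0.258 and 0.403.

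The other neighbouring pair, Col4a4 and Col4a3 on chromosome 1, encodes chains best known from the filtration barrier of the kidney and had mean signals under the 50th percentile of all genes. Col4a3 ranged in newborn hearts from 3.97 to 4.22 (median 4.16) for WT and from 3.89 to 4.17 (3.9) for KO, and in young hearts from 4.62 to 5.07 (4.87) for WT and from 4.67 to 5.42 (4.99) for KO, with no overlap between ages. It rose 1.66-fold in WT (log2 0.73, SE 0.1, adjusted p = 1.27e-06) and 2.1-fold in KO hearts (1.07, SE 0.1, adjusted p = 4.22e-09). Col4a4 rose 1.27-fold in WT (0.35, SE 0.09, adjusted p = 0.002) and 1.61-fold in KO hearts (0.69, SE 0.09, adjusted p = 5.83e-07). Their usual partner Col4a5, on the X chromosome beside Col4a6, ranged from 5.39 to 6.45 over all hearts and did not pass in WT (-0.22, adjusted p = 0.161) or KO hearts (-0.19, adjusted p = 0.197). Col4a6 was lower in WT hearts (-0.53, SE 0.19, adjusted p = 0.0205), and this call was lost without newborn WT heart 4, young WT heart 3 or young WT heart 5 and with median centring.

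Among the type VI genes, whose products form beaded filaments around cells, the neighbours Col6a1 and Col6a2 on chromosome 10 both fell in WT hearts. Col6a1 ranged in newborn hearts from 9.25 to 9.55 (median 9.33) for WT and from 9.18 to 9.6 (9.26) for KO, and in young hearts from 7.64 to 9.03 (8.19) for WT and from 8.08 to 9.41 (8.89) for KO. Col6a2 ranged from 8.91 to 9.16 (9), 8.9 to 9.16 (8.94), 7.53 to 8.71 (7.86) and 7.67 to 9.07 (8.39). Young and newborn WT hearts did not overlap for either gene, and KO hearts did. The fall in WT hearts was 2.22-fold for Col6a1 (log2 -1.15, SE 0.21, adjusted p = 4.25e-05) and 2.06-fold for Col6a2 (-1.04, SE 0.19, adjusted p = 4.96e-05). In KO hearts Col6a1 changed by -0.45 (adjusted p = 0.0627) and Col6a2 by -0.54 (adjusted p = 0.0175), the latter not called without young KO heart 3. Col6a3, the longest chain of the filament, ranged from 6.25 to 8.22 over all hearts and was called in neither genotype (-0.44 and -0.33, SE 0.27 for both).

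The 3 genes that lie side by side on chromosome 9 encode chains that can stand in for Col6a3, and Col6a6 was the only one of them called with age. Col6a6 ranged in newborn hearts from 7.05 to 7.23 (median 7.16) for WT and from 6.82 to 7.3 (7.02) for KO, and in young hearts from 5.28 to 6.23 (5.71) for WT and from 5.54 to 6.68 (6.36) for KO. Every young heart was below every newborn heart. It fell 2.81-fold in WT (log2 -1.49, SE 0.15, adjusted p = 1.07e-08) and 1.67-fold in KO hearts (-0.74, SE 0.15, adjusted p = 0.000241), and its second probe set gave -1.72 and -1.15. Its neighbours Col6a5 and Col6a4 changed by -0.07 and -0.01 in WT hearts and were not called. The sequence before the start of Col6a6, on the minus strand of chr9:105828086-105828335, is shown because this was the only collagen called between genotypes, with capitals as above.
Col6a6: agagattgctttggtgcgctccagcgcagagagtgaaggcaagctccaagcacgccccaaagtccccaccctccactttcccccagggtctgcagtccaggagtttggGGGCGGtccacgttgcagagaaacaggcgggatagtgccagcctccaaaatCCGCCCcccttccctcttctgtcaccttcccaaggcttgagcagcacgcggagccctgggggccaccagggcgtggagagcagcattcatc
It held GGGCGG at 142 and its reverse complement at 91 bases before the start, and no CCAAT.

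Network collagens held the steepest rise. Col8a1, a chain of the short-chain network of vessel walls and of the cornea's inner membrane, ranged in newborn hearts from 5.05 to 5.46 (median 5.34) for WT and from 5.14 to 5.46 (5.18) for KO, and in young hearts from 6.38 to 7.7 (6.89) for WT and from 6.6 to 7.68 (7.38) for KO. All young hearts were above all newborn hearts. The rise was 3.25-fold in WT (log2 1.7, SE 0.2, adjusted p = 7.56e-08) and 4.21-fold in KO hearts (2.07, SE 0.2, adjusted p = 3.57e-09). Its partner chain Col8a2 ranged from 4.1 to 4.54 (median 4.34) in newborn WT and from 3.74 to 4.3 (3.91) in young WT hearts and was lower by 0.34 (SE 0.12, adjusted p = 0.0241), a call that either rescaling ended, while its change in KO hearts was 0.01. Col10a1, of growth plate cartilage, ranged from 3.39 to 4.21 over all hearts and was not called. The 250 bases before the Col8a1 start, on the minus strand of chr16:57754738-57754987, are shown because no other collagen rose as far.
Col8a1: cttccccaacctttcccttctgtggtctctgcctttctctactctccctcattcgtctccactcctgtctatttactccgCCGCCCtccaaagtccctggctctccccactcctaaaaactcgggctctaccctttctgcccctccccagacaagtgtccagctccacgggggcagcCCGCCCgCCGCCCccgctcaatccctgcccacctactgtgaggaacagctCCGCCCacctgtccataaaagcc
The reverse complement of GGGCGG occurred 4 times, 170, 73, 66 and 23 bases before the start.

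Of the 8 fibril-associated genes, 4 fell in WT hearts. Col12a1 and Col14a1 encode homologous proteins that coat type I fibrils. Col12a1 ranged in newborn hearts from 6.55 to 7.2 (median 6.81) for WT and from 6.54 to 7.61 (7.12) for KO, and in young hearts from 4.07 to 5.34 (4.27) for WT and from 3.97 to 5.43 (5.1) for KO. No young heart reached a newborn heart, and the fall was the largest of any collagen, at 5.52-fold in WT (log2 -2.46, SE 0.23, adjusted p = 2.59e-09) and 4.67-fold in KO hearts (-2.22, SE 0.23, adjusted p = 1.77e-08). Col14a1 ranged from 8.85 to 9.04 (8.99), 8.43 to 9.09 (8.83), 6.53 to 8.58 (6.99) and 6.62 to 8.8 (8.17) in the same order. It was 3.45-fold lower in WT (-1.79, SE 0.3, adjusted p = 1.74e-05) and 1.77-fold lower in KO hearts (-0.83, SE 0.3, adjusted p = 0.0205), where the ages overlapped and the call was lost without young KO heart 3. Col16a1 and Col9a2 were lower in WT hearts by 0.49 and 0.36, and only Col16a1 stayed so with centring. Col20a1 ranged from 4.92 to 5.81 over all hearts and was not called on the deposited scale. Col19a1 and Col22a1, both dim, were higher in KO hearts by 0.28 and 0.25 and changed by 0.03 and 0.01 in WT hearts, and neither was called in KO hearts after quantile normalization.

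The multiplexins Col15a1 and Col18a1, which lie next to basement membranes, moved apart. Col18a1, whose end is cut off as endostatin, ranged in newborn hearts from 7.03 to 7.39 (median 7.21) for WT and from 6.75 to 7.35 (7.11) for KO, and in young hearts from 4.85 to 6.22 (5.32) for WT and from 5.57 to 6.73 (6.15) for KO. Ages did not overlap, and it fell 3.53-fold in WT (log2 -1.82, SE 0.19, adjusted p = 2.46e-08) and 1.89-fold in KO hearts (-0.92, SE 0.19, adjusted p = 0.000355). Col15a1 ranged from 8.17 to 8.48 (8.36), 7.83 to 8.4 (8.12), 7.85 to 9.21 (8.44) and 8.09 to 9.49 (8.7), with overlap throughout. Its rise passed in KO hearts (1.62-fold, log2 0.7, SE 0.21, adjusted p = 0.00744), and in WT hearts it was 0.17 (adjusted p = 0.538).

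Of the 4 membrane-spanning collagens, Col23a1 fell by 0.74 in WT and by 0.52 in KO hearts without overlap. Its newborn signals were 5.62 to 6.13 (median 5.94) for WT and 5.89 to 6.24 (5.98) for KO, and its young signals 4.89 to 5.59 (5.13) and 5.39 to 5.63 (5.5). Col25a1 was lower in WT hearts by 0.28 (adjusted p = 0.0475), a call that was lost on leaving out any of 16 single arrays. Col13a1 ranged from 3.85 to 4.61 over all hearts, Col17a1 from 3.71 to 4.18, and neither was called. Col26a1 fell nearly as far as Col12a1. It ranged in newborn hearts from 6.87 to 7.55 (median 7.27) for WT and from 6.62 to 7.29 (6.93) for KO, and in young hearts from 4.58 to 5.44 (4.92) for WT and from 4.78 to 5.69 (5.3) for KO, without overlap. The fall was 4.85-fold in WT (log2 -2.28, SE 0.16, adjusted p = 1.15e-11) and 3.18-fold in KO hearts (-1.67, SE 0.16, adjusted p = 3.24e-09). Col28a1 stayed between 3.43 and 4.19 and was not called.

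Over the KO hearts as a group, 12 collagens were lower with age, 8 were higher and 22 were not called, where 25% of all genes were lower and 34% were higher (59% in either direction). The median change was -0.11, against 0.1 for all genes. All 12 were among the 22 that were lower in WT hearts, 54.5% of those 22. The same overlap over all genes was not computed. All young KO hearts lay below all newborn KO hearts for 8 collagens, against 15.1% of all genes, and above them for 4, against 15.9%. With each array centred on its median, 12 collagens were lower and 15 higher. In that setting 13040 of all 18819 genes were called, and the median change was 0.27 over all genes and 0.06 over the collagens. After a new quantile normalization 15 collagens were lower and 8 higher, where 8653 of all genes were called and their median change was 0.01. Col3a1, Col6a1 and Col24a1 were then among the lower ones. On the deposited scale 10 genes were lower in WT hearts only, Col3a1 and Col6a1 among them. These were not shown to differ between genotypes, since the difference of the age effects was called for 0 of the 42. Leaving out 1 array at a time gave 19 to 22 lower collagens in WT and 10 to 14 in KO hearts, the 10 without young KO heart 3.

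Markers of other cell types also differed between ages. The mean of 10 fibroblast markers, such as Pdgfra and Dcn, was 8.66 to 8.86 in newborn WT and 7.94 to 9.09 in young WT hearts, and that of 8 epicardial markers, such as Wt1, was 7.47 to 8.17 and 4.8 to 7.18. The 13 atrial markers averaged 8.58 in newborn and 6.88 in young WT hearts, with 8 lower and 1 higher, and 5 of the 6 leukocyte markers were higher (mean 6.21 and 7.01). The 9 endothelial markers went both ways, with 5 lower and 3 higher (-0.69 to 0.81), while their mean lay between 8.92 and 9.27 in every WT heart of both ages. In bulk tissue, fewer cells of a type and less RNA per cell cannot be told apart, and the part of these markers in the collagen values was not tested.

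Genes for proteins that make, trim and bind collagen went both ways with age in WT hearts, where 27.9% of all genes were lower and 19.2% higher. Of 18 measured folding and modification genes, 9 were lower and 3 higher in young WT hearts. P4ha3, a prolyl 4-hydroxylase subunit that stabilises the helix, went from 8.19 ± 0.12 to 3.96 ± 0.65 (SD, n = 6), a log2 change of -4.23 (SE 0.25, adjusted p = 9.03e-13), while the related subunit P4ha2 rose by 1.04 (adjusted p = 7.37e-09) and P3h1, a prolyl 3-hydroxylase, fell by 0.77. Of 13 propeptide processing and crosslinking genes, 8 were lower, among them Pxdn, which crosslinks type IV collagen (-1.14), and Adamts14, a procollagen protease (-1.33). Pcolce2, an enhancer of procollagen cleavage, was the 1 that rose, from 5.88 ± 0.12 to 8.2 ± 0.33 (log2 2.31, SE 0.16, adjusted p = 1.3e-11).

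Of 19 fibril partners, 8 were lower and 3 higher, and the matricellular genes Tnc (-3.04), Postn (-2.74) and Thbs2 (-2.64) had the smallest p-values of the list. Of 14 basement membrane partners, 7 were lower and 4 higher, with the laminin chain Lamb1 at -1.07, the proteoglycan Agrn at -1.23 and the laminin chain Lamb2 at 0.95. Among 10 collagen receptors 4 fell and 3 rose. The integrin subunit Itga2 (-1.6) and the receptor kinase Ddr1 (-1.35) fell and the related kinase Ddr2 rose (1.07). Of 14 genes for collagen-degrading enzymes and their inhibitors, 8 were lower and 1 higher, and the matrix metalloproteinase Mmp14 and the inhibitor Timp1 changed by -2 and -1.65. Of 13 genes of the TGF-beta pathway, an inducer of collagen synthesis, 7 were lower and 0 higher, with Tgfb2 at -1.28, Tgfbr1 at -0.8 and Smad2 at -0.67. With median centring the folding genes divided into 7 lower and 8 higher, the basement membrane partners into 5 lower and 6 higher, the receptors into 3 lower and 4 higher, and in the other 4 lists lower genes still outnumbered higher ones. That centring shifted the change of all genes to a median of 0.26.

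Newborn KO and WT hearts did not differ in any collagen at the threshold. 0 of the 42 genes were called, where 0% of all genes were, and at an unadjusted p under 0.05 limma gave 4 lower and 0 higher collagens, against 7.62% and 1.45% of all genes. The 9 estimates above 0 were 9 of 42, where 31.2% of all genes lay above 0. The 4 were Col19a1, Col4a1, Col22a1 and Col11a2. Col19a1, a minor fibril-associated chain near the bottom of the signal range, lay between 3.5 and 3.59 (median 3.52) in newborn WT and between 3.13 and 3.41 (3.3) in newborn KO hearts, with young hearts between 3.39 and 3.66. It was the only collagen without overlap between newborn genotypes, where 0.436% of all genes lay wholly lower and 0.0531% wholly higher in KO hearts. Its change was -0.25 (SE 0.06, adjusted p = 0.27 in limma, 0.0255 without both newborn arrays numbered 4). In that last setting 482 of all 18819 genes were called. Col22a1, from tissue junctions, ran from 3.84 to 4.12 (3.99) in newborn WT and from 3.68 to 3.95 (3.84) in newborn KO hearts, a change of -0.16 (SE 0.07, adjusted p = 0.533). Col4a1 changed by -0.24 (SE 0.1, adjusted p = 0.485) and Col1a1, Col1a2 and Col5a2 each by -0.03.

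Young KO hearts had higher estimates than young WT hearts for 36 of 42 collagens, where 60.2% of all genes lay above 0. This count was 30 with median centring and 29 with quantile normalization, where the median of all genes was -0.04 and -0.01. On the deposited scale only Col6a6 passed the threshold, as 1 of 42 higher and 0 lower, against 0.67% and 0.351% of all genes (1.02% in either direction). The median difference was 0.18, against 0.03 for all genes. It was 0.23 for the fibrillar, 0.12 for the basement membrane and 0.17 for the other collagens. At an unadjusted p under 0.05, 16 collagens were higher and 0 lower, against 10.4% and 4.57% of all genes. No collagen was free of overlap between the young groups, where 0.42% of all genes lay wholly higher and 0.404% wholly lower in KO hearts.

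The values of Col6a6 in young hearts 1 to 6 were 5.64, 6.23, 5.78, 5.28, 5.33 and 5.78 in WT and 6.29, 6.68, 5.54, 6.42, 6.48 and 6.31 in KO hearts. In 5 of 6 KO hearts it was above all WT hearts, and young KO heart 3 was lower than 4 WT hearts. The difference was 1.53-fold (log2 0.61, SE 0.15, adjusted p = 0.0484), and it was no longer called on leaving out any of 21 of the 24 arrays in turn. Over all 24 of these fits the limma adjusted p ran from 0.00196, without young KO heart 3, to 0.126. The difference was also not called with the mean of both probe sets (0.52, adjusted p = 0.0865). Col18a1 was 4.85, 6.22, 5.52, 5.14, 5.12 and 5.5 in the WT and 6.23, 6.73, 5.57, 6.71, 6.07 and 5.68 in the KO hearts at the young age. Here all KO hearts were above 5 of the 6 WT hearts, and the difference was 0.77 (SE 0.19, adjusted p = 0.0538). Col18a1 was called with array weights, median centring, quantile normalization, the replicate block or without genes under the 30th percentile, and without young WT heart 2, young KO heart 3 or young KO heart 6. Col4a4 was 4.06, 4.43, 4.52, 4.13, 4.15 and 4.61 in the WT and 4.61, 4.84, 4.48, 4.84, 4.53 and 4.64 in the KO hearts at the young age, a difference of 0.34 (SE 0.09, adjusted p = 0.0642). Col4a3 beside it differed by 0.2 and Col4a1 and Col4a2 by 0 and -0.04.

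**Figure D3:**
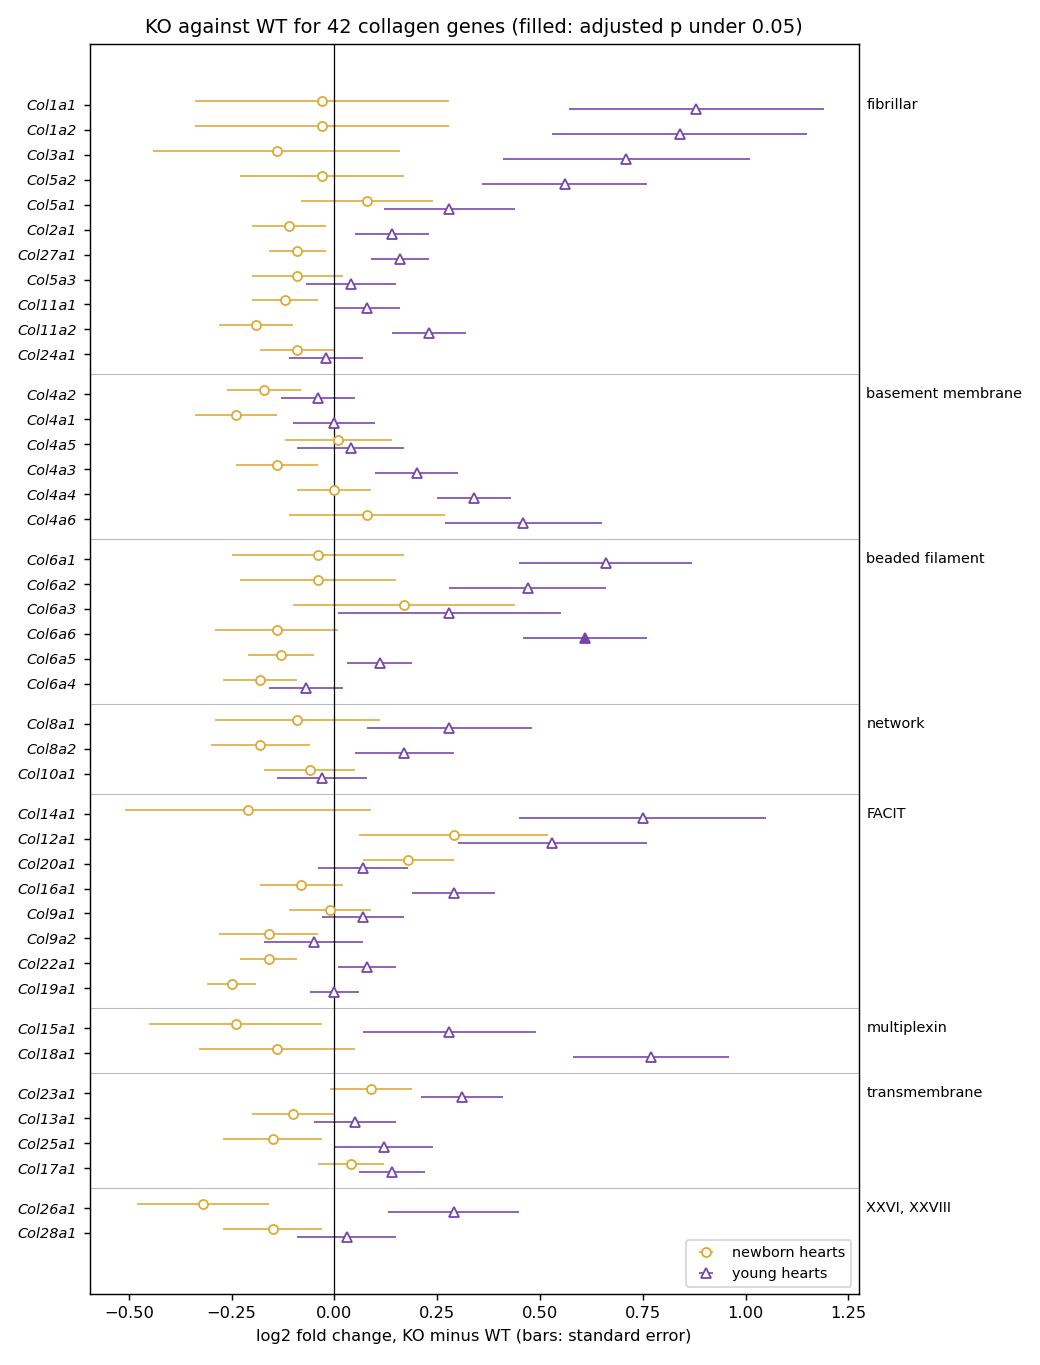
Log2 fold change of KO against WT for the 42 collagen genes in newborn (circles) and young hearts (triangles), with standard errors as bars and filled symbols for genes called by limma. Most triangles lie right of 0, up to 0.88 for Col1a1, and only Col6a6 in young hearts is filled.

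The largest differences in size were those of Col1a1, Col1a2, Col18a1, Col14a1, Col3a1 and Col6a1. Col1a1 was 0.88 higher (1.85-fold, SE 0.31, adjusted p = 0.152), Col1a2 0.84 (SE 0.31, adjusted p = 0.183), Col14a1 0.75 (SE 0.3, adjusted p = 0.22), Col3a1 0.71 (SE 0.3, adjusted p = 0.266) and Col6a1 0.66 (SE 0.21, adjusted p = 0.117), and none of the 6 passed the threshold. Without young KO heart 3, 11 collagens were called higher, among them Col1a1 (1.15, adjusted p = 0.0163), Col1a2 (1.13, adjusted p = 0.0158), Col3a1 (1.01, adjusted p = 0.0204) and Col14a1 (1.01, adjusted p = 0.0268), where 3.44% of all genes were called higher. Without young WT heart 2, 11 were called as well, where 3.3% of all genes were called higher, and Col3a1 was not among them (0.94, adjusted p = 0.0572). Both hearts were picked out with these data known. Young KO heart 3 was often the lowest and young WT heart 2 often the highest of its group for collagens. Leaving out such a heart widens a difference in this direction by itself, so the added calls are not support for it. Fitted on the 12 young arrays alone, 0 collagens were called.

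**Figure D4:**
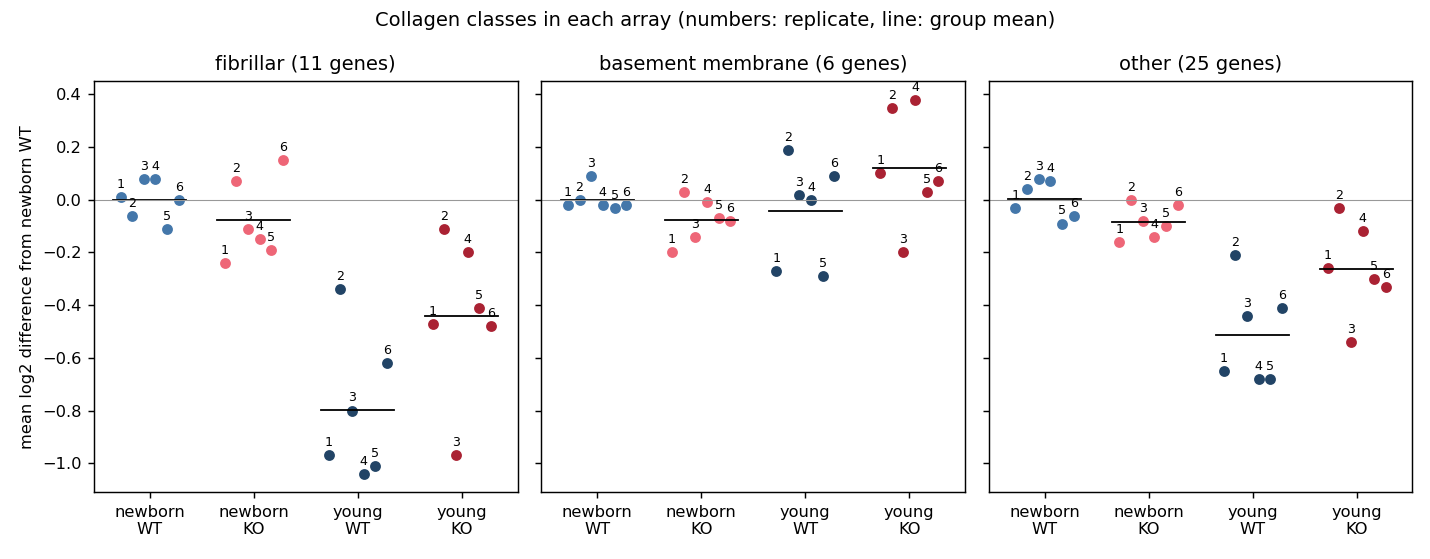
Mean log2 difference from the newborn WT mean over the fibrillar (11 genes), basement membrane (6) and other collagens (25) in each heart, numbered by replicate, with the group mean as a line. Young WT heart 2 lies above the rest of its group (fibrillar mean -0.34) and young KO heart 3 below the rest of its own (-0.97).

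Averaged over the 11 fibrillar genes, the difference from newborn WT hearts was -0.8 ± 0.27 in young WT (SD, n = 6, from -1.04 to -0.34) and -0.44 ± 0.3 in young KO hearts (from -0.97 to -0.11). For the type IV genes it was -0.04 ± 0.19 and 0.12 ± 0.22, and for the other collagens -0.51 ± 0.19 and -0.26 ± 0.18. The young groups overlapped in all 3 classes. The spread among hearts also grew with age: the median SD of a fibrillar gene was 0.13 and 0.17 in newborn WT and KO hearts and 0.26 and 0.24 in young ones, and that of all genes tested was 0.14, 0.13, 0.17 and 0.18.

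Some lists of markers of other tissue had higher means in young KO than in young WT hearts, and others hardly differed. The mean of all 13 atrial markers ran from 5.91 to 8.91 in the WT and from 6.46 to 9.45 in the KO hearts at the young age, and 12 of the 13 had higher estimates in KO hearts, none called. Myl7, an atrial myosin light chain, averaged 6.52 in the WT and 10.47 in the KO hearts at the young age, and Myl4 8.72 and 11.68. The 10 fibroblast markers ran from 7.94 to 9.09 and from 8.15 to 9.28, all 10 with higher estimates in KO hearts, the 8 epicardial markers from 4.8 to 7.18 and from 5.83 to 7.85, the 9 smooth muscle and pericyte markers from 8.1 to 9.29 and from 8.29 to 9.66 (median difference 0.08, 6 of 9 with higher estimates in KO hearts, Cnn1 at 2.66, Tagln at 1.7 and Myh11 at 1.64, none called), and the 9 valve and cartilage markers from 4.21 to 5.52 and from 4.41 to 5.95, of which Hapln1 was called (0.73, adjusted p = 0.0404). Dcn, Fmod and Scx stood in a pathway list as well. Endothelial markers averaged 9.12 and 9.17 and went both ways, with 5 of 9 above 0 and only Egfl7 called (-0.35, adjusted p = 0.0446). Leukocyte markers averaged 7.01 in the WT and 7.08 in the KO hearts, and the 3 measured neural crest markers 4.18 and 4.28, none called. Of the ventricular cardiomyocyte markers, Ryr2 was called lower (-0.24, adjusted p = 0.0365). Signals of this scale have no zero, so no marker could be called absent. The 12 young arrays alone gave 0 called collagens, where 0.101% of all genes were called, and a median difference of 0.18. With the atrial mean of each heart as a covariate in these arrays, 0 collagens were called, where 0.0478% of all genes were. The median was 0.09. Col1a1 was then at 0.09, Col3a1 at -0.09, Col18a1 at 0.33 and Col6a6 at 0.26. The atrial mean was itself higher on average in KO hearts, so this fit cannot separate it from genotype. The part of the marker lists in the difference was not tested.

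In the pathway lists Tgm2, Tinagl1 and Kera were called higher in young KO than in young WT hearts. Of all genes tested, 0.67% were called higher and 0.351% lower. Tgm2, a transglutaminase that crosslinks matrix proteins, was 9.78 ± 0.14 in the WT and 10.14 ± 0.09 in the KO hearts at the young age (log2 0.36, SE 0.08, adjusted p = 0.022). Tinagl1, a matrix protein of basement membranes, was 8.99 ± 0.18 and 9.44 ± 0.21 (0.45, SE 0.09, adjusted p = 0.0171), and Kera, a fibril-binding proteoglycan of the cornea, was 3.46 ± 0.2 and 3.86 ± 0.22 (0.39, SE 0.1, adjusted p = 0.0441). Kera was not called with median centring (adjusted p = 0.125) or quantile normalization (adjusted p = 0.104), nor Tgm2 with median centring (adjusted p = 0.058). On the deposited scale these were the only calls among 18 folding, 13 processing, 19 fibril partner, 14 basement membrane partner, 10 receptor, 14 degradation and 13 TGF-beta genes. The fibril partners had estimates above 0 in 19 of 19 genes with a median of 0.51, the degradation genes in 13 of 14 with 0.36 and the TGF-beta genes in 13 of 13 with 0.22. For the processing genes it was 11 of 13 with 0.26, for the folding genes 15 of 18 with 0.12 and for the receptors 8 of 10 with 0.09. Of all genes, 60.2% lay above 0, with a median of 0.03. Basement membrane partners were mixed, with 9 of 14 above 0 and a median of 0.11. Among them, the laminin chain Lama5 was at -0.4 (adjusted p = 0.0668) and perlecan, Hspg2, at -0.3 (adjusted p = 0.0702). Hspg2 was called lower with median centring (-0.37, adjusted p = 0.0439) and with quantile normalization (-0.33, adjusted p = 0.0396).

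The effect of the KO was not shown to differ between ages for any collagen. The difference of the effects, young minus newborn, was above 0 for 41 of 42 collagens, where 69.8% of all genes were above 0. This count was 37 with median centring and 36 with quantile normalization, where the median of all genes was 0 in each. On the deposited scale 0 collagens were called, against 0.0106% of all genes. An unadjusted p under 0.05 was seen for 16, all higher, against 10.9% of all genes higher and 2.04% lower. The median was 0.25, against 0.08 for all genes. Col6a6 had the smallest adjusted p (0.75, SE 0.21, adjusted p = 0.218), followed by Col11a2 (0.43, SE 0.13, adjusted p = 0.241) and Col18a1 (0.91, SE 0.28, adjusted p = 0.241). Only Col20a1 had a difference below 0, at -0.1.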

How the data were processed

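Expression was measured in ventricle RNA of 24 mouse hearts in 4 groups of 6. The authors deposited RMA values on the log2 scale. Per the submitters' processing notes they worked in R (version 2.15) with the packages oligo (1.22) and limma (3.14). RMA quantile-normalizes arrays, so absolute shifts in RNA are not kept, and weak signals are compressed. The genome build used upstream was not given in the sources used here. The deposited table held 35017 probe sets, of which 21118 had 1 gene symbol in the platform annotation, 1735 had several and 12164 had none, and the latter 2 kinds were left out. All 42 collagen genes matched a RefSeq gene by Entrez identifier. Groups came from the sample annotation.

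Groups were compared by linear models in limma (3.58.1, under R 4.3.3) that gave each group its own mean over all arrays, 20 residual degrees of freedom, moderated variances and Benjamini-Hochberg adjustment over 18819 genes at an adjusted p under 0.05. The steps were tested on simulated data. Precision is limited by the number of arrays, since arrays give no counts. Of the collagens, 23 had a mean signal under the 50th percentile of all genes, and Col19a1 was under the 30th. No 2 arrays held identical values. Collagen genes, classes, pathway lists and markers were chosen with earlier results of these data known. Group ranges are given for the 3 brightest genes of each class, genes called between genotypes, the 3 smallest p-values of each comparison of genotypes and the 3 largest rises and falls with age. Alternatives were other scalings, filters, variance models, probe set rules, sample subsets, an atrial covariate, a replicate block and leaving out each array. Some genes are not reported here. Promoter sequences are those of RefSeq on GRCm38.p6.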

Additional observations from a re-analysis of the deposited data

Results flagged for a closer look

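In groups of 6 hearts, a highest or lowest heart whose gap to its nearest neighbour took up more of the group's range than Dixon's critical value allows was singled out. This held for 11 of 168 groups (6.55%), where chance gives about 1 in 20. In young WT hearts these were Col12a1 in heart 2 (5.34, next 4.38) and Col27a1 in heart 3 (4.4, next 4.73). In young KO hearts they were Col6a6 in heart 3 (5.54, next 6.29), Col13a1 in heart 5 (4.6, next 4.31), Col2a1 in heart 6 (4.9, next 4.99) and Col25a1 in heart 6 (3.53, next 3.92). In newborn WT heart 5 they were Col14a1 (8.85, next 8.98) and Col9a1 (4.13, next 4.33). In newborn KO hearts they were Col8a1 in heart 4 (5.46, next 5.22), Col20a1 in heart 4 (4.92, next 5.33) and Col17a1 in heart 6 (4.18, next 3.93). The values are log2 signals.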

How the results depend on the processing

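The count of collagens called higher in young KO hearts was 1 as reported. It was 2, with Col18a1 as the second gene, with array weights, median centring, a new quantile normalization, the replicate block, or without genes under the 30th percentile. It was 0 when a gene's probe sets were averaged, with only the 12 arrays of the comparison, with the atrial mean added, and without both newborn arrays numbered 4. In the same order, 173, 19, 9 and 204 of all 18819 genes were called. On leaving out 1 array the count was 0 to 11. In newborn hearts 1 collagen of 42, Col19a1, was called lower without both newborn arrays numbered 4 (-0.27), where 482 of all 18819 genes were called. In the other settings 0 collagens were called there. The difference between ages gave 0 to 1 calls on leaving out 1 array, the 1 being Col6a6 without young KO heart 3 (adjusted p = 0.0393). With median centring, 11 collagens rather than 4 rose with age in WT and 15 rather than 8 in KO hearts. Over all genes, calls in either direction went from 8854 to 12831 in WT and from 11110 to 13040 in KO hearts. Leaving out 1 array gave 4 to 4 rises in WT and 8 to 9 in KO hearts, with the falls as in the report. Calls of Col24a1, Col8a2, Col4a6 and Col25a1 in WT and of Col1a1, Col1a2, Col14a1 and Col6a2 in KO hearts were lost without single arrays. The median of all 42 collagens went with median centring from -0.29 to -0.03 in WT and from -0.11 to 0.06 in KO hearts. Among the fibrillar, type IV and other collagens, 2 class medians changed sign with it. The type IV median went from -0.22 to 0.04 in WT and from -0.11 to 0.06 in KO hearts. That of the other collagens went from -0.02 to 0.16 in KO hearts. The fibrillar median went from -0.95 to -0.55 in WT and from -0.69 to -0.45 in KO hearts when a gene's probe sets were averaged, and to -0.38 in KO hearts without young KO heart 3. With the atrial mean added, 13 of the 42 differences between young genotypes changed sign, among them Col14a1 (-0.08). No called collagen changed direction. Replicate numbers gave no pairing in newborn hearts. Deviations of same-numbered newborn WT and KO hearts correlated at -0.438 to 0.13, with the own number best for 0 of 6 hearts. In young hearts they correlated at -0.222 to 0.645, with the own number best for 4 of 6, so a pairing there was not settled. Apart from the young KO count above, the replicate block changed no count by over 1.5 times. Weak signals of 23 collagens limit how small a change could be seen.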
